A study of Mus musculus with 6 samples.

Results

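Collagen I, fibronectin and 4 related products of matrix-making cells were followed through 3 control and 3 MIRI mouse libraries. The genes are Col1a1 and Col1a2, the chains of collagen I, Fn1 (fibronectin), Sparc (osteonectin), Bgn (biglycan) and Vim (vimentin). They are 6 genes held by 7 of the 53509 rows of the deposited count table. They were chosen by position and on the basis of their high levels in these same libraries, as described below, so their levels and group differences are a description and carry no test.

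The samples were of the C57BL/6 strain. Controls were labelled wild type, and MIRI stands for myocardial ischemia-reperfusion injury, a block and later return of the blood supply of heart muscle. That injury is entered as the genotype of the MIRI samples, and the deposited files call them mutant, so whether they also carried a mutation is not known. The labels named 3 tissues, namely retina, intervertebral disc and, through the condition, heart. The design text gave an age of 21 days. No other treatment, no allele and no sex or time after injury was given, and no source says whether the 3 libraries of a group came from separate animals. The p-values therefore reflect only the spread among these libraries, which may be technical.

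Collagen I is the main fibre-forming collagen of skin, bone, tendon and scar. Its molecule is a triple helix of a pair of alpha 1 chains, from Col1a1, and an alpha 2 chain, from Col1a2. Fibronectin is laid down early in a new matrix and binds both collagen and cell-surface integrins. Sparc binds collagen and modulates how cells hold to it, biglycan is a small leucine-rich proteoglycan that associates with collagen fibrils, and vimentin is the intermediate filament of fibroblasts and other mesenchymal cells. Fibroblasts make all of them in most tissues, and scarring after heart injury is known for added collagen I and fibronectin.

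The deposited row names mostly did not match the GRCm38 genes at their coordinates. The rows Fn1 and Vim, for example, had the exon length of those genes (11685 and 4743 bases) at shifted positions. Each row was therefore named by the GRCm38 gene whose exons it lay on. This assumes that the reads were aligned to GRCm38, which no source states. On that basis the row Itga3 (11:94935300-94967627 in the file) held reads of Col1a1 (GRCm38 chromosome 11, 94936224 to 94953042, plus strand, ENSMUSG00000001506.10). It covered 1314 exon bases, 20.02% of that gene's exon bases, and touched 14 of the 51 exons of its main transcript. The row Col1a2 lay exactly on Col1a2 (chromosome 6, 4504814 to 4541544, plus strand, ENSMUSG00000029661.16), so that all 52 exons were counted. Fn1 (chromosome 1, 71585520 to 71653200, minus strand, ENSMUSG00000026193.15) was read from the row Atic, which touched 8 exons between exons 23 and 40 of 46, and from the row Fn1, which touched 9 exons between exons 1 and 19. Of the exon bases under the row Fn1, 86.2% were of Fn1 itself. Their counts were summed.

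The row G3bp1 covered 1114 bases of the last exon of Sparc (chromosome 11, 55394500 to 55423183, minus strand, ENSMUSG00000018593.13), of which 1088 are 3′ untranslated and 26 coding. The row Ikbkg overlapped 2356 bases of the annotated exons of Bgn (chromosome X, 73483602 to 73495933, plus strand, ENSMUSG00000031375.17), of which 1893 lie in exons 4 to 8 of the 8 exons of its main transcript, both coding and 3′ untranslated. The row Vim was displaced along its own gene (chromosome 2, 13573927 to 13582826, plus strand, ENSMUSG00000026728.9) and overlapped 542 bases of its annotated exons, of which 490 lie in coding exons 4 to 8 of the 9 exons of the main transcript. Because the covered lengths differ and rows can take reads from bases outside the gene, levels of different genes cannot be ranked against each other, while 1 gene can be compared between libraries.

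**Figure D1:**
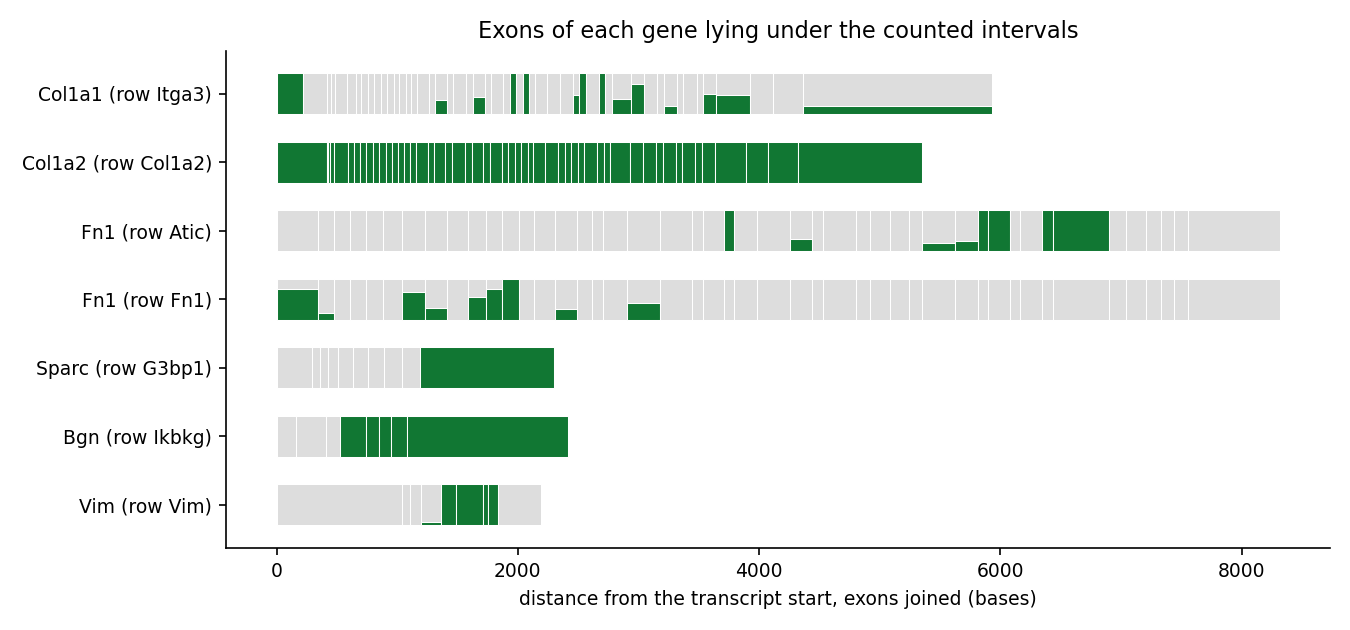
Exons of each gene joined end to end from the transcript start (x axis, bases), with 1 line per counted row. Grey boxes are exons and the green height is the share of each exon that the row's intervals cover; Col1a2 is covered over all 52 exons, whereas the Sparc row covers only the last of 10.

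The collagen chains can be recognised by their exons. In the coding frame of the GENCODE M21 main transcripts, 21 of the 51 exons of Col1a1 and 24 of the 52 of Col1a2 are exactly 54 bases long, and no exon of Fn1, Sparc, Bgn or Vim is. Glycine is the smallest residue and sits at the start of each Gly-X-Y triplet, the repeat that lets the chains wind into a helix. Of exons that are in frame and a whole number of such triplets long, 42 of 43 in Col1a1 and 43 of 45 in Col1a2 had a glycine codon at the start of each triplet. The exons below are shown because they lie wholly under the intervals of the counted rows. They are reference sequence and not reads of these libraries, so they do not test the naming of the row Itga3. Capitals mark the glycine codons, and all are on the plus strand of GRCm38, read from GENCODE M21 transcripts.
Col1a1 exon 27, chr11:94944598-94944651: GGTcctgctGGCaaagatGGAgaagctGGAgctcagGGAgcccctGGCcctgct
Col1a1 exon 29, chr11:94944914-94944967: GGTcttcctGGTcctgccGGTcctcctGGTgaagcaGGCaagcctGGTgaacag
Col1a1 exon 35, chr11:94946776-94946829: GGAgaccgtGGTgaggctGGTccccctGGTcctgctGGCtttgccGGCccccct
Col1a1 exon 37, chr11:94947270-94947323: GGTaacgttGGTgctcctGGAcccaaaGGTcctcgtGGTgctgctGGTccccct
Col1a2 exon 27, chr6:4524117-4524170: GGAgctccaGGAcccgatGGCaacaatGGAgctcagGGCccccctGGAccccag
Col1a2 exon 29, chr6:4524876-4524929: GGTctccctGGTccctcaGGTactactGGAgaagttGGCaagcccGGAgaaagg
Each printed exon holds 6 glycine codons, and exons 27 and 29 are shown from both genes so that the same exon of the 2 chains can be compared.

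The libraries held 6859481 to 9250952 counts. Levels are given as CPM, counts per 1000000 counts of the library. The 6 members together took 8.33%, 7.68% and 9.77% of all counts in control libraries 1, 2 and 3. Their share was 7.75%, 9.44% and 10.3% in MIRI libraries 1, 2 and 3. The lowest count of any member in any library was 43164, which gives a counting error of 0.481%, so the spread below is far larger than counting error alone. Control 2 and MIRI 1 stood apart: the chi-square per degree of freedom between libraries was 4.75 to 8.38 in the 6 pairs of the other libraries and 10.6 to 22.4 in the 9 pairs that hold either. The members' group differences are therefore given with and without them. For genes named from the matrix lists below, both values are given where the log2 fold change moved by over 1.5 times.

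Collagen I came out highest in MIRI 3 for both chains, and its group means were 1.23 times (Col1a1) and 1.20 times (Col1a2) as high in MIRI as in control. Col1a1 was at 7198, 7182 and 9278 CPM in control libraries 1 to 3 and at 8520, 9508 and 11103 CPM in MIRI 1 to 3. Control 3 exceeded MIRI 1, so the groups overlapped. The means were 7886 ± 1205 (SD, n = 3) and 9710 ± 1304 CPM. Fitted as log2, MIRI against control differed by 0.31 ± 0.17 (SE), and 0.34 ± 0.14 without control 2 and MIRI 1. In bulk RNA, a difference in the number of cells of a type and in RNA per cell cannot be told apart, for this gene and those that follow.

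Col1a2, the other chain, was at 10978, 11014 and 14627 CPM in the controls, against 12886, 14312 and 16614 CPM in MIRI. Here control 3 exceeded MIRI 1 and MIRI 2, and controls 1 and 2 were the lowest libraries. The means were 12206 ± 2096 and 14604 ± 1881 CPM (SD, n = 3), with a log2 fold change of 0.26 ± 0.18, and 0.29 ± 0.15 without control 2 and MIRI 1. The difference of means was 1824 CPM for Col1a1 and 2398 CPM for Col1a2, in both cases somewhat larger than the SD of either group. It moved with single libraries: the log2 fold change ranged from 0.18 (without MIRI 3) to 0.46 (without control 3) for Col1a1, and from 0.14 to 0.44 for Col1a2 without the same libraries.

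The group means of fibronectin differed by less than the spread within either group. Fn1 was at 33827, 31551 and 38383 CPM in the controls, against 30130, 37749 and 40107 CPM in MIRI. MIRI held both the lowest and the highest library, and the control range lay inside the MIRI range. The means were 34587 ± 3478 and 35996 ± 5215 CPM (SD, n = 3) and the log2 fold change was 0.07 ± 0.18, or 0.13 ± 0.10 without control 2 and MIRI 1. It changed sign when control 2 or MIRI 3 was left out (lowest value -0.04) and was 0.21 without MIRI 1.

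Sparc, the collagen-binding matricellular protein, varied most. It was at 10474, 8223 and 13498 CPM in the controls, against 8037, 12522 and 13028 CPM in MIRI, a range of 1.68-fold over the 6 libraries. Control 2 and MIRI 1 were the lowest, 33.6% and 35.1% below the mean of the other 4 libraries, and the groups overlapped almost fully. The means were 10732 ± 2647 and 11196 ± 2747 CPM (SD, n = 3), with a log2 fold change of 0.07 ± 0.25, or 0.11 ± 0.13 without those libraries. The sign turned without control 2, MIRI 2 or MIRI 3, with values from -0.10 to 0.29. A further row, Glra1, overlapped 196 bases of Sparc and was not counted in it because only 64.1% of its exon bases lay there. It moved alongside, at 3025, 2070 and 3609 CPM in the controls, against 2264, 3501 and 3545 CPM in MIRI.

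Bgn, the fibril-associated proteoglycan, was at 14427, 11820 and 15499 CPM in the controls, against 12125, 14027 and 16316 CPM in MIRI. Control 2 was the lowest library and MIRI 3 the highest. The means of 13915 ± 1892 and 14156 ± 2099 CPM (SD, n = 3) were closer than for any other member. The log2 fold change was 0.03 ± 0.18, or 0.04 ± 0.10 without control 2 and MIRI 1, and it was negative without control 2 or MIRI 3 (lowest value -0.10).

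Vim, the filament protein of mesenchymal cells, was the steadiest of the 6 and the 1 member with a lower mean in MIRI. It was at 6443, 7020 and 6404 CPM in the controls, against 5827, 6293 and 5944 CPM in MIRI, a range of 1.20-fold. All 3 MIRI libraries were below all 3 controls on this scale. The means were 6622 ± 345 and 6021 ± 242 CPM (SD, n = 3). The log2 fold change was -0.13 ± 0.11, and -0.05 ± 0.08 without control 2, its highest library, and MIRI 1, its lowest. On TMM-scaled values, which correct the library size for composition, the groups overlapped: MIRI 2 (0.04 above the mean of the 6 libraries, log2) was above control 1 (0.02).

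**Figure D2:**
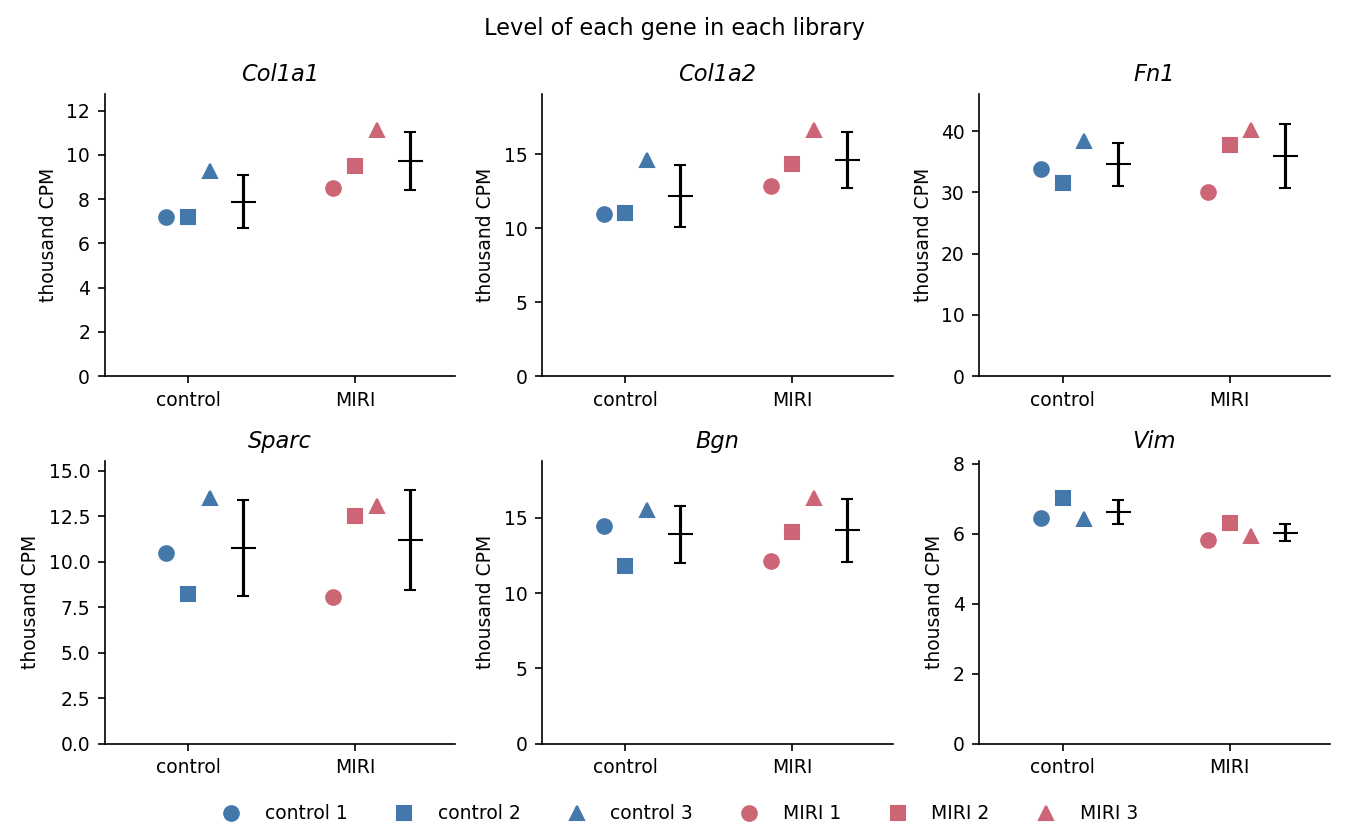
Level of each of the 6 genes in each library (y axis, CPM divided by 1000, starting at 0). Points are libraries, shaped by replicate number, and black bars are the group mean ± SD of 3; the groups overlap for the 5 matrix genes, and all MIRI libraries lie below all controls for Vim.

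On the CPM scale, Vim was thus the only 1 of 6 members whose groups did not overlap. Over the 15776 rows tested, with Atic and Fn1 summed as 1 feature, groups did not overlap in 8.81% (3.63% with MIRI higher and 5.19% with MIRI lower), and the count of 1 member is read as no more than that background. By edgeR's quasi-likelihood test with Benjamini-Hochberg adjustment, 0% of rows were called higher and 0% lower. The adjusted p was 0.105 or above in every row. Before adjustment, 4.34% of rows had a p under 0.05 (1.62% higher, 2.72% lower), and DESeq2 called 0.539%. The median log2 fold change over all rows was 0.01, with quartiles of -0.13 and 0.15, so the differences of Fn1, Sparc and Bgn lay between the quartiles, those of Col1a1 and Col1a2 lay above the upper one, and that of Vim sat at the lower one. Among 83 rows with a mean of at least 1000 CPM, a set nearer to the members in level, the quartiles were -0.06 and 0.07. Against these, Vim lay below the lower one, and Col1a1 and Col1a2 again lay above the upper one. Fn1 and Sparc sat at the upper one, and Bgn lay between them.

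The members fell into 3 patterns across the libraries, described on TMM-scaled log2 values centred on the mean of the 6 libraries. The collagen I chains followed each other most closely, with Pearson's r of 0.995 over 6 libraries, with both genes sharing each library's depth and scaling. Fn1, Sparc and Bgn followed each other with r of 0.94 to 0.98, and the collagen chains followed those 3 with r of 0.75 to 0.84. Vim followed none of them, with r from -0.20 to 0.30. The first pattern and the second parted in control 1 and in MIRI 1. In control 1 both chains were 0.28 below their mean, and Fn1, Sparc and Bgn were near theirs (-0.06, -0.04 and 0.04). In MIRI 1, Col1a1 and Col1a2 were 0.10 and 0.11 below their mean, and Fn1, Sparc and Bgn were 0.29, 0.49 and 0.27 below.

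**Figure D3:**
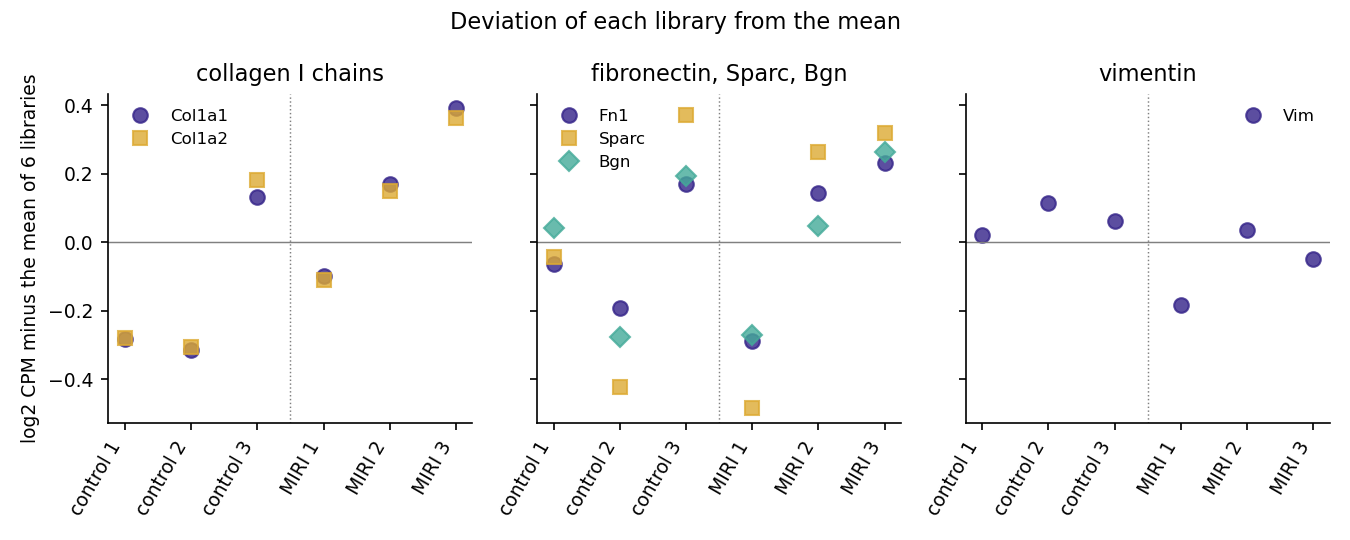
Deviation of each library from the mean of the 6 libraries (y axis, TMM-scaled log2 CPM) for the collagen I chains, for Fn1, Sparc and Bgn, and for Vim. The dotted line separates control from MIRI; control 2 and MIRI 1 are low together for Fn1, Sparc and Bgn, while Vim is highest in control 2.

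Ratios within a library do not depend on its depth or scaling. Col1a1 over Col1a2 counts was 0.656, 0.652 and 0.634 in controls and 0.661, 0.664 and 0.668 in MIRI, a narrow band for 2 genes whose levels each varied by over 1.5-fold. The 3 MIRI ratios were all above the 3 control ratios, with a difference of 0.04 on the log2 scale (SD 0.03 in control, 0.01 in MIRI), which was 0.02 without control 3 and 0.05 without control 2 and MIRI 1. The rows cover different parts of each gene, so the ratio is not the ratio of the chains themselves.

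Fibronectin could be compared within 1 gene, since its rows cover different stretches of it. The row on exons 23 to 40 over the row on exons 1 to 19 was 1.12, 1.09 and 1.12 in controls and 1.07, 1.10 and 1.07 in MIRI. The groups overlapped, and their means differed by -0.04 on the log2 scale, or -0.05 without control 2 and MIRI 1. For Sparc, Glra1 over G3bp1 counts was 0.289, 0.252 and 0.267 in controls and 0.282, 0.280 and 0.272 in MIRI, which also overlapped.

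Of the 6 ratios computed, Vim over Col1a1 differed most between the groups, and it was chosen after the levels were seen. It was 0.895, 0.978 and 0.690 in controls and 0.684, 0.662 and 0.535 in MIRI. All MIRI libraries were lower, but control 3 and MIRI 1 were nearly equal, and against Col1a2 the groups overlapped (0.438 in control 3, 0.452 in MIRI 1). The log2 difference was -0.44, with an SD of 0.26 in control and 0.19 in MIRI, and -0.40 without control 2 and MIRI 1.

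**Figure D4:**
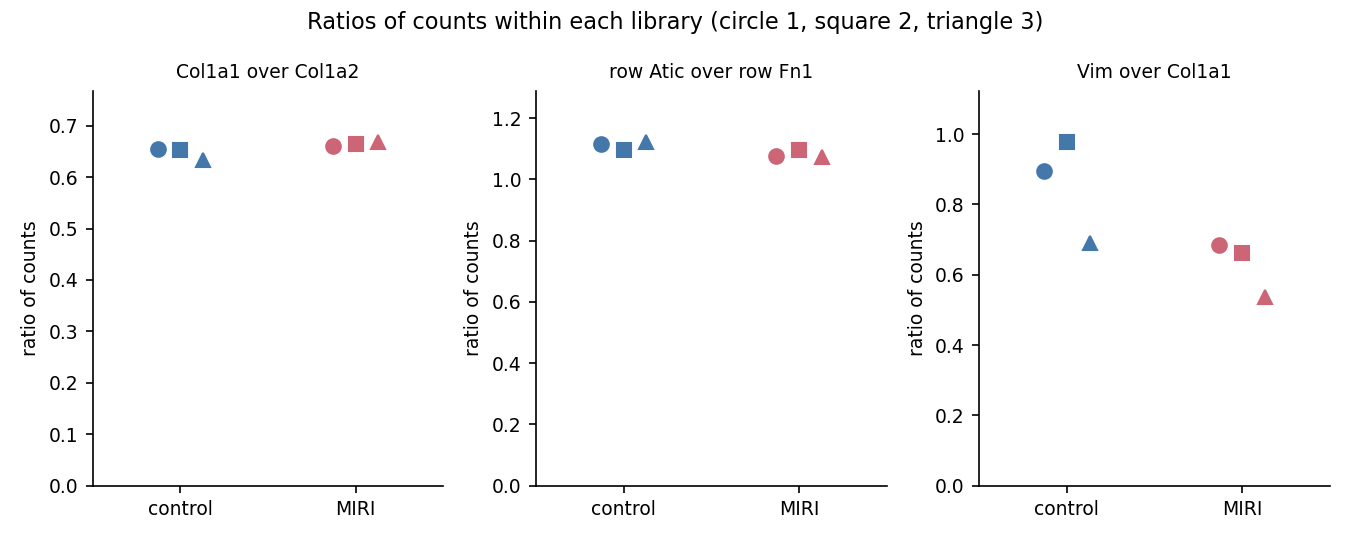
Ratio of counts within each library (y axis, starting at 0) for Col1a1 over Col1a2, for the 2 rows of Fn1, and for Vim over Col1a1. Points are libraries, shaped by replicate number; the collagen ratio stays between 0.634 and 0.668, and the Vim ratio runs from 0.978 down to 0.535.

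Markers of the cells that the samples could hold were read beside these values, as summed CPM of the marker genes covered by position. Of 10 fibroblast markers 6 were covered, and they summed to 1615 to 1786 CPM in controls and 1294 to 1611 in MIRI, so that the groups were apart by only a few CPM. With TMM factors they overlapped (control 2 at 1579 and MIRI 2 at 1656). Thy1, Gsn and Pdgfra led the list, and Mfap5 was at 0. Thy1 and Gsn had lower means in MIRI, and Pdgfra a higher one (373 ± 53.5 CPM in control, 424 ± 73.3 in MIRI, SD, n = 3). Of 17 endothelial markers 8 were covered, at 369 to 940 CPM in controls and 207 to 274 in MIRI, led by Eng, Pecam1 and Ptprb. Pecam1, a defining marker of vessel lining, was at 74.8, 355 and 243 CPM in the controls, against 19.1, 1.75 and 4.33 CPM in MIRI. The endothelial sum stayed apart with TMM factors. Leaving out libraries cannot make groups that are apart overlap, so it is no check of this. The part of either marker list in the members' values was not tested.

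Other lists were low or overlapped. Smooth muscle and pericyte markers (5 of 12 covered) summed to 116 to 176 CPM in controls and 132 to 182 in MIRI, and macrophage markers (4 of 12) to 85.02 to 133 and 92.6 to 145. Of the 3 tissues in the labels, the covered markers were low: cardiomyocyte genes (5 of 15 covered, Myh6 at 0) gave 2.83 to 8.97 CPM, photoreceptor and retina genes (7 of 14) 13.7 to 26.1, mostly Opn1sw, and disc and cartilage genes (5 of 12) 23.0 to 31.6, mostly Col9a2. Many of these markers, such as Myh7 and Col2a1, were not covered by any row named for them, so their levels were not measured. Osteoblast, epithelial, adipocyte, red blood cell and lymphocyte lists, with 1, 3, 2, 5 and 1 genes covered, stayed under 7 CPM in all libraries. Y-linked Ddx3y and Eif2s3y were added after their values were seen. Ddx3y was at 1.22, 0.548 and 2.70 CPM in the controls, against 98.6, 6.71 and 24.1 in MIRI. Eif2s3y was at 1.22, 0.411 and 1.51 CPM in the controls, against 61.9, 6.41 and 10.6 in MIRI. The sex of the mice was not given, and its part in the members' values was not tested.

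Around the 6 members, 275 other genes of matrix biology were taken in 10 lists, of which 141 were covered and 126 tested. None was called higher or lower by edgeR, where 0% of the 5917 genes by position were called. Before adjustment, 4 higher and 6 lower genes had a p under 0.05, beside 4.6% of all genes (1.64% higher, 2.96% lower). Groups did not overlap for 5 higher and 5 lower genes of the 126, beside 8.94% of all genes (3.46% higher, 5.48% lower). DESeq2 called 1, Adamts14, beside 0.963% of all genes. The median log2 fold change of the 126 was 0.03, with 72 above 0 and 54 below, and that of all genes was 0.01. Without control 2 and MIRI 1 the median of the 126 was 0.06, with 74 above 0 and 52 below. That of all genes was then -0.0009.

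The other fibrillar collagens, the family of collagen I, all had positive values in the 6 of 9 that were tested, with a median log2 fold change of 0.22 and no call. Without control 2 and MIRI 1, 5 of the 6 were positive and the median was 0.21. Col5a1, which helps start collagen I fibrils, was at 1061, 933 and 1204 CPM in the controls, against 944, 1284 and 1295 in MIRI (0.15 ± 0.18, edgeR adjusted p = 1.00). Its lowest libraries were control 2 and MIRI 1, as for Fn1 and Sparc. Col5a2 and Col5a3 were added here after their values were seen. Col5a2 was at 4827, 4766 and 6700 CPM in the controls, against 4425, 6622 and 6636 in MIRI (0.13 ± 0.24). Col5a3 had a log2 fold change of 0.03 ± 0.45, and -0.05 without control 2 and MIRI 1. Col11a2, Col24a1 and Col27a1 were under 12 CPM in every library, with log2 fold changes of 0.53 ± 0.35, 0.28 ± 0.29 and 0.43 ± 0.33. For the first 2 these were 0.10 and 0.61 without control 2 and MIRI 1.

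Collagens outside that family (15 of 30 tested) had a median of -0.03, with 6 values above 0 and 9 below, and -0.10 without control 2 and MIRI 1. The basement membrane chain Col4a1 was at 806 ± 183 CPM in controls and 988 ± 261 in MIRI (SD, n = 3), which overlapped. Col9a2, a cartilage collagen also used as a disc marker, was lower in all 3 MIRI libraries in CPM (22.1 ± 2.59 and 17.7 ± 1.45 CPM, with a log2 fold change of -0.32 ± 0.16), from a row over only 54 bases, and overlapped with TMM scaling. Col9a3, another chain of that collagen, was at 3.82 ± 1.27 and 5.83 ± 1.17 CPM (0.62 ± 0.30, and 0.38 without control 2 and MIRI 1), and the basement membrane chain Col4a3 at 4.44 ± 1.86 and 3.24 ± 0.473 CPM (-0.46 ± 0.39). Both overlapped.

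Enzymes that make and crosslink collagen (13 of 33 tested) had a median of 0.11, with 9 above 0 and 4 below. Adamts14, which trims the amino end of procollagen, was at 3.70 to 5.01 CPM in the controls, against 8.74, 11.7 and 8.40 CPM in MIRI. The groups did not overlap and the log2 fold change was 1.18 ± 0.24, with an edgeR adjusted p of 0.262 and a DESeq2 adjusted p of 0.0249. It rests on 27 to 80 counts per library from a row over 75 bases. Pcolce, an enhancer of the enzyme that cuts the other end of procollagen, was at 1083 ± 231 and 1327 ± 102 CPM (0.29 ± 0.18, and 0.14 without control 2 and MIRI 1), with control 3 above MIRI 2. P4ha3, a subunit of the prolyl hydroxylase that stabilises the helix, was at 118 ± 14.3 and 140 ± 12.2 CPM, and the crosslinking enzyme Tgm2 at 39.5 ± 6.31 and 49.2 ± 6.27 CPM (SD, n = 3 for each), both overlapping.

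Adhesive and elastic-fibre glycoproteins, the family of Fn1, had 16 of 35 tested, with a median of 0.05, 13 above 0 and 3 below. Without control 2 and MIRI 1 the median was 0.11, with 10 above 0 and 6 below. The laminins, which form part of the basement membrane network, went different ways. Lamb1 was at 395, 439 and 446 CPM in the controls, against 475, 537 and 485 in MIRI (0.23 ± 0.11), and Lamc1 at 134, 139 and 142 and at 148, 172 and 166 (0.24 ± 0.11). For both, each MIRI library was above each control in CPM, the groups overlapped with TMM scaling, and neither passed (edgeR adjusted p = 1.00 for each). Lama4 (0.11 ± 0.19) and Lama5 (-0.50 ± 0.33), added here after their values were seen, overlapped. Nid1, which links laminin to collagen IV in the basement membrane, was at 204 ± 22.7 and 236 ± 18.9 CPM (SD, n = 3), and Emilin2, an elastic-fibre glycoprotein, at 9.99 ± 4.18 and 15.7 ± 5.78 CPM. Both overlapped.

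Among matricellular proteins, the class of Sparc, 5 of 20 were tested and 5 were above 0, with a median of 0.09. Without control 2 and MIRI 1, 2 of the 5 were above 0 and the median was -0.11. Thbs2, a thrombospondin, was at 16.4 to 29.6 CPM in the controls, against 26.6 to 41.0 in MIRI (0.68 ± 0.27, edgeR adjusted p = 0.995), with control 3 above MIRI 1. Thbs3, a relative of it, was at 2.87 ± 0.613 and 3.81 ± 0.836 CPM, Tgfbi, a TGF-beta induced adhesion protein, at 21.1 ± 6.85 and 22.5 ± 18.9 CPM, and Matn2 (matrilin 2) at 151 ± 27.8 and 154 ± 16.0 CPM (SD, n = 3). Their log2 fold changes of 0.40, 0.09 and 0.03 were 0.12, -0.53 and -0.15 without control 2 and MIRI 1. Among proteoglycans, the class of Bgn, 9 of 26 were tested, with a median of 0.01, and 0.04 without those libraries. Dcn (decorin), a close relative of biglycan, was at 33.3, 20.1 and 28.1 CPM in the controls, against 14.7, 20.4 and 17.9 in MIRI (-0.62 ± 0.23, adjusted p = 0.967). Srgn (serglycin), a proteoglycan of blood cell granules, was at 8.43 ± 5.70 and 4.26 ± 1.20 CPM, and its log2 fold change of -0.97 ± 0.48 was -0.47 without control 2 and MIRI 1. Vcan (versican) was at 461 CPM in MIRI 1 and 137 to 253 in the other libraries (0.55 ± 0.30, and 0.29 without control 2 and MIRI 1). The cell-surface proteoglycan Sdc4 was at 304 ± 36.2 and 333 ± 24.6 CPM (0.14 ± 0.12, and 0.06 without them).

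Matrix receptors (18 of 28 tested) had a median of -0.06, with 6 above 0 and 12 below. Without control 2 and MIRI 1 the median was -0.0009, with 9 on each side. Itgb4, the integrin chain of epithelial hemidesmosomes, was at 2.30, 10.4 and 4.97 CPM in the controls, against 2.42, 1.02 and 2.30 in MIRI. The groups overlapped at 7 to 76 counts, and the fit gave -1.59 ± 0.57 (edgeR adjusted p = 0.923). The collagen-binding integrin chain Itga2 was at 6.98 ± 1.66 and 5.38 ± 0.653 CPM (-0.38 ± 0.26). Ddr2, a receptor tyrosine kinase that binds fibrillar collagen, was at 674 ± 115 and 759 ± 82.1 CPM, and the collagen-binding integrin Itga11 at 84.7 ± 58.1 and 118 ± 47.4 CPM (SD, n = 3), both overlapping. Proteases and their inhibitors (16 of 34 tested) had a median of 0.22, with 11 above 0 and 5 below. Mmp10 was at 2.17, 1.92 and 1.62 CPM in the controls, against 6.59, 3.64 and 3.93 in MIRI (1.31 ± 0.32, edgeR adjusted p = 0.402), at 14 to 49 counts. Mmp13 was at 15.7 CPM in MIRI 1 alone and at 1.76 to 2.77 elsewhere, and its log2 fold change of 1.64 was 0.34 without control 2 and MIRI 1. The protease inhibitor Serpine2 was at 90.8 ± 22.3 and 123 ± 19.3 CPM (SD, n = 3) and overlapped. Adamts12 was at 235 ± 21.8 and 292 ± 31.6 CPM (SD, n = 3), higher in all 3 MIRI libraries in CPM, overlapping with TMM scaling, and not called (edgeR adjusted p = 0.986).

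TGF-beta signalling, the main known driver of collagen I and fibronectin expression, had 7 of 24 genes tested, with a median of -0.05. The median was -0.03 without control 2 and MIRI 1. The 7 were Tgfbr1, Eng, Bmpr2, Ski, Skil, Bambi and Lrrc32. They include no TGF-beta ligand and mix receptors with a decoy receptor, so the median does not measure the strength of the signal. Tgfbr1 was at 299 ± 38.9 and 353 ± 83.1 CPM, and the co-receptor Eng, also an endothelial marker, at 239 ± 37.3 and 182 ± 39.2 CPM (SD, n = 3), both overlapping. Their log2 fold changes of 0.24 and -0.38 were 0.12 and -0.17 without control 2 and MIRI 1. The decoy receptor Bambi, at 19.0 ± 3.95 and 16.8 ± 4.08 CPM, and Lrrc32, which holds latent TGF-beta on the cell surface, at 124 ± 2.99 and 136 ± 9.96 CPM, overlapped as well. For Bambi the log2 fold change of -0.18 was -0.11 without control 2 and MIRI 1. Mesenchymal cytoskeleton and transcription factors, the group of Vim, had 21 of 36 tested, with a median of -0.04, 9 above 0 and 12 below, and 0.01, 11 and 10 without control 2 and MIRI 1. The 4 genes named from this list had groups that did not overlap, lower in MIRI, where 5.48% of all genes did so. They were chosen by their small p. Nes, the filament protein nestin, was at 666 ± 166 and 478 ± 23.7 CPM (-0.47 ± 0.16, and -0.22 without control 2 and MIRI 1). Thy1, a surface glycoprotein that is also in the fibroblast marker list, was at 782 ± 49.2 and 608 ± 77.3 CPM (-0.35 ± 0.13, and -0.22 without them), the transcriptional coactivator Wwtr1 at 236 ± 7.20 and 191 ± 13.3 CPM (-0.29 ± 0.11) and the homeobox factor Meox1 at 3.30 ± 0.161 and 1.66 ± 0.604 CPM (-0.99 ± 0.33, SD and n = 3 for each level). No gene of this list was called (smallest edgeR adjusted p 0.863).

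**Figure D5:**
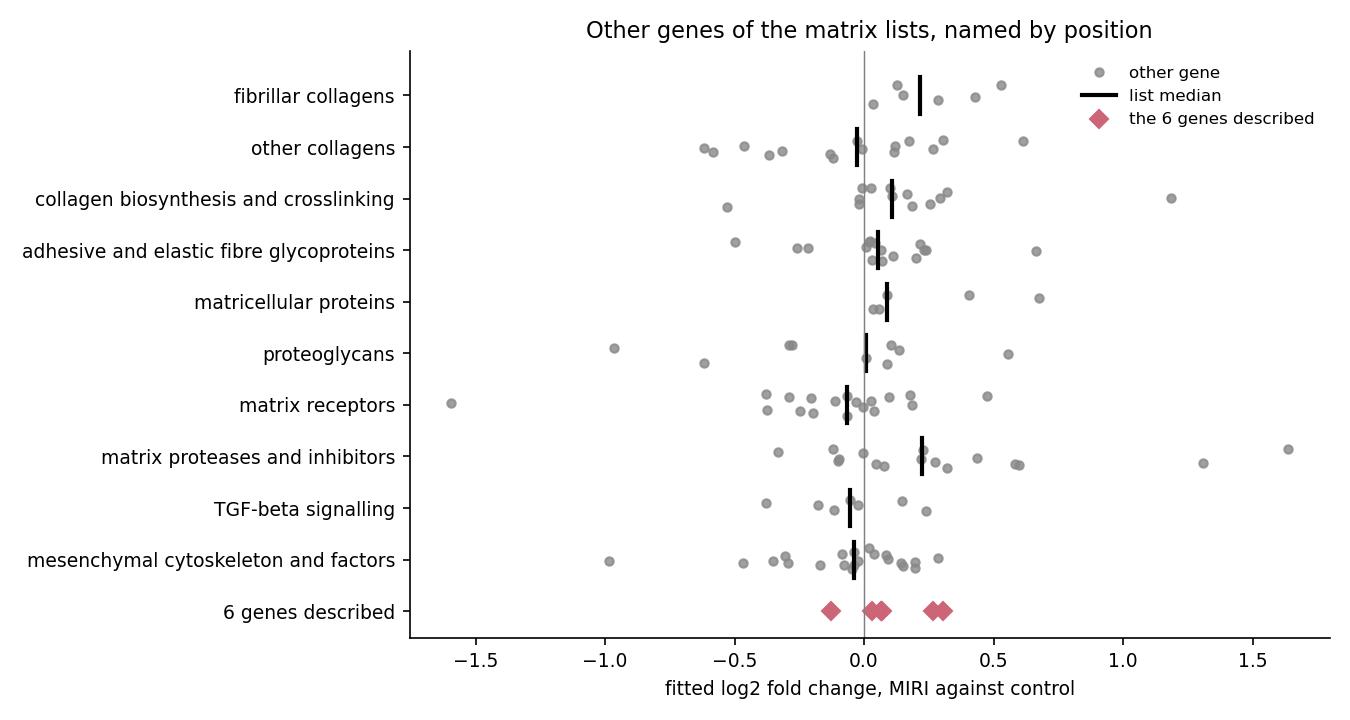
Fitted log2 fold change of MIRI against control (x axis) for the 126 other matrix genes tested, 1 line per list, with black bars at list medians, and for the 6 genes described (diamonds). Medians run from -0.06 to 0.22, and the members lie between -0.13 and 0.31.

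The genes most like the members were sought among 3165 genes by position with a mean of at least 20 CPM, by the Pearson correlation over 6 libraries with the mean of the 6 centred members. They were Aptx (r = 0.998), Rpn2 (0.99), Gne (0.99), Xpot (0.99) and Scamp5 (0.98). Aptx repairs DNA ends, Rpn2 is part of the complex that adds sugars to secreted proteins, Gne begins sialic acid synthesis, Xpot exports tRNA and Scamp5 is a vesicle membrane protein. Aptx was at 67.0, 62.7 and 78.5 CPM in the controls, against 63.6, 73.9 and 80.6 in MIRI, lowest in control 2 and MIRI 1 as the members were on average. This is a description over 6 libraries: 114 of the 3165 genes had an r above 0.9. Both sides of the correlation were TMM-scaled, and a higher factor lowers every gene's scaled value in that library. The factors by position were highest in control 2 (1.05) and MIRI 1 (1.08), where the members were low on average. Shared scaling can therefore raise r, and its part in these values was not tested.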

How the data were processed

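RNA was measured in 6 libraries. The values deposited by the authors are raw counts of read pairs for each row, made with featureCounts 2.0.1 per the file headers, on exons and without strand, so reads of antisense genes were not separated. The builds mm8 and mm9 and the aligner Bowtie 0.12.2 come from the submitters' processing notes, which do not say which made these alignments. Deposited FPKM values were not used. Each sample file equalled the series table in all 53509 rows and held 37 further rows without counts. Every column was mapped to a sample.

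Rows were laid on GENCODE M21 exons (GRCm38) with no coordinate conversion, which assumes alignment to GRCm38. A row took the gene holding at least 80% of its overlapped exon bases and 50 bp, which named 14930 rows for 11910 genes with 61.4% of counts. edgeR 4.0.16 in R 4.3.3 (TMM, filterByExpr, quasi-likelihood, group only, Benjamini-Hochberg at 0.05, two-sided) was fitted over all rows and over all genes. On simulated data it recovered 98.5% of 200 changes of 4-fold among 15411 rows and 100% among 5848 genes. Of the calls made there, 6.19% and 4.76% were false. Changes as small as those of the members, and libraries that stand apart, were not simulated. DESeq2 1.42.0, limma 3.58.1 (voom), other scalings and filters, a replicate block and libraries left out were alternatives. Members were read from these fits as log2 fold change and SE, without p. Up to 4 genes per list, at 2 CPM or more with the smallest unadjusted p, were named, with 5 like genes and 3 leading genes per marker list; other genes named are said to be chosen after their values were seen. The members and lists were chosen with earlier results of these data known.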

Additional observations from a re-analysis of the deposited data

How the results depend on the processing

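Directions of the 6 log2 fold changes held under the 7 settings that changed scaling, filter, tool or rows. Leaving out 1 library at a time gave 0.18 to 0.46 for Col1a1, 0.14 to 0.44 for Col1a2, -0.04 to 0.21 for Fn1, -0.10 to 0.29 for Sparc, -0.10 to 0.16 for Bgn and -0.18 to -0.07 for Vim, and 0.02 to 0.05 for the log2 ratio of Col1a1 over Col1a2. Rows called were 0 in the main analysis, 354 with no low-count filter (123 higher, 231 lower), 85 by DESeq2 (8 and 77), 0 to 31 when 1 library was left out (31 lower without control 1) and 1 without control 2 and MIRI 1 together, a setting chosen after seeing the data. Genes by position called were 0, 32, 57, 0 to 14 (14 without control 1, 2 without control 2, namely Adgrl4 and Selp, and Adgrl4 alone without control 3) and 1, Fbxl18, which was also the row called there; these 3 were named after their values were seen. Of the matrix lists, DESeq2 called 1 gene and every other setting tried 0. The causes were not tested.

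With the replicate number as a block, log2 fold changes were 0.31, 0.27, 0.06, 0.06, 0.03 and -0.13 for Col1a1, Col1a2, Fn1, Sparc, Bgn and Vim, and 0 rows or genes were called. No source says whether the numbers pair the samples. Same-numbered libraries correlated at -0.15, -0.27 and 0.15 in their deviations from the group means. The highest value was 0.38, for control 2 and MIRI 1, the libraries that stood apart. Deviations within a group cancel out, so these values cannot decide whether samples were paired.

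Counting error was under 0.5% for each member in each library.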
